A study of Mus musculus with 12 samples.

Results

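The 36 genes described here belong to the interferon response and to class I antigen presentation. They are a fixed list of mouse gene symbols, chosen by name and not by a measured value, though with earlier results of these data known. All 36 were found among the 55809 gene symbols of both count tables. By role, 5 carry or restrain the interferon signal, 13 sense viral RNA or act against viruses, 8 are other interferon-induced genes, 3 encode parts of the class I molecule, 6 make, carry or load its peptides, and 1, Nlrc5, encodes the transactivator of class I genes.

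RNA sequencing was done on sorted mouse cells in 12 libraries, 3 in each of 4 groups. TOM positive and TOM negative cells were separated from hypothalamus, with no treatment, at an age of 4 weeks; the mice were Mc4r-Cre; Ai14. In both of these groups Cre is made from the Mc4r gene, and the Ai14 reporter turns on the red protein tdTomato (TOM) in every cell that makes Cre or descends from one that did. The other libraries, AAV-Cre and AAV-GFP, are of the hypothalamic paraventricular nucleus (PVH) at an age of 26 weeks; these mice were Otp fl/fl; Ai14 and had received adeno-associated virus (AAV) 12 weeks earlier. Cells of AAV-Cre mice were sorted for TOM and cells of AAV-GFP mice for GFP. Both of these groups carry floxed Otp, the Ai14 reporter and an injected virus, so virus, Otp genotype of the sorted cells and fluorophore of the sort cannot be told apart, and no uninjected group stands beside them. The study set out to find regulators of Mc4r, the melanocortin 4 receptor gene that restrains feeding, and the gene changes behind weight gain after loss of Otp, a transcription factor of hypothalamic neurons. The labels do not name animals, so p-values measure only the spread between libraries, which may be technical.

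Totals were between 13506018 and 27827853 counts per library. Counts of Mc4r were 63, 0 and 0 in TOM positive cells, against 0 in each TOM negative library, so that 2 libraries sorted by Mc4r-Cre held no Mc4r count. Otp had 12, 9 and 10 counts in the AAV-Cre libraries, against 91, 102 and 38 in the AAV-GFP libraries. The Otp difference was -2.84 ± 0.87 on the log2 scale and did not pass the threshold (edgeR adjusted p = 0.134; DESeq2 adjusted p = 0.0364). The labels speak of neurons, and 12 neuronal marker genes took 0.0501% to 0.0648% of the counts in TOM positive libraries, against 0.00842% to 0.00937% in TOM negative ones. In the same TOM positive libraries, 9 oligodendrocyte markers took 8.48% to 9.46%, against 1.68% to 2.19% in TOM negative ones. In these bulk samples, fewer cells of a type and less RNA per cell cannot be told apart.

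Interferons bind receptors on the cell surface and, through JAK kinases, activate STAT proteins. Type I interferons act mainly through a complex with STAT2 and IRF9 in it that binds the interferon-stimulated response element in the promoters of antiviral genes. Interferon gamma induces IRF1 and, with NLRC5, the machinery by which cells show fragments of their proteins to CD8+ T cells. That machinery consists of the immunoproteasome, which cuts proteins, the TAP transporter, which moves the peptides into the endoplasmic reticulum, tapasin, which helps load them, and the class I heavy chains with beta-2 microglobulin. Healthy neurons hold little class I at rest, and microglia and endothelial cells are known for higher levels.

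The promoters printed here show the element that some but not all antiviral members hold, and its counterpart in a class I gene. They are read from RefSeq on GRCm38.p6, 5′ to 3′ on the strand of the gene, as the bases before the transcript start that lie in no annotated exon. Capitals mark the core of the interferon-stimulated response element, GAAA, any 2 bases and GAAA, searched on both strands. Isg15 encodes a ubiquitin-like modifier, and the stretch lies at chr4:156200819-156201068 on the minus strand. Ifit1 encodes a protein that binds viral RNA, and the stretch lies at chr19:34640744-34640870 on the plus strand. Its neighbours Ifit3 and Ifit3b encode partner proteins of the same family, and theirs lie at chr19:34583279-34583528 and chr19:34607707-34607956 on the plus strand. Rsad2 encodes viperin, an enzyme that makes a chain-terminating nucleotide, and the stretch lies at chr12:26456453-26456702 on the minus strand. B2m encodes beta-2 microglobulin, the light chain of class I, and the stretch lies at chr2:122147437-122147685 on the plus strand.
Isg15: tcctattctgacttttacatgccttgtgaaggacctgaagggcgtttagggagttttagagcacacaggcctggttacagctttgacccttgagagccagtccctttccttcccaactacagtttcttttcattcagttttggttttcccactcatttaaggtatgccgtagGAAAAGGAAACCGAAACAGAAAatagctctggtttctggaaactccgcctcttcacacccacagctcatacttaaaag
Ifit1: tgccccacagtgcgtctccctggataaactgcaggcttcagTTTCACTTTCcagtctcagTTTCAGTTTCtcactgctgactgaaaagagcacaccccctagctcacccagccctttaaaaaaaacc
Ifit3: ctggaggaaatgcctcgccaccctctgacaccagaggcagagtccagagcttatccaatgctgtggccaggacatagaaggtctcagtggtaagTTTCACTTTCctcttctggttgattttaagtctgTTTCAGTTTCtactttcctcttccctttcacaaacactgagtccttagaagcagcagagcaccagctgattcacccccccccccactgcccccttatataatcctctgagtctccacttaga
Ifit3b: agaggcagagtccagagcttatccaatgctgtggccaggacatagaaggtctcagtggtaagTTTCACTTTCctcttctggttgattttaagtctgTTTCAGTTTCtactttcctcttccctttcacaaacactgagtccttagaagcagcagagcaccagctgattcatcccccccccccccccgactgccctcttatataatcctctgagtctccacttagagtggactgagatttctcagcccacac
Rsad2: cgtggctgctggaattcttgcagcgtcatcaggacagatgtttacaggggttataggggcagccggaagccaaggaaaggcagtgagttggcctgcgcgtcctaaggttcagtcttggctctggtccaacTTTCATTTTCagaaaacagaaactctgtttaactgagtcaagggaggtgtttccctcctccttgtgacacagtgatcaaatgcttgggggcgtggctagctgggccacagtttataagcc
B2m: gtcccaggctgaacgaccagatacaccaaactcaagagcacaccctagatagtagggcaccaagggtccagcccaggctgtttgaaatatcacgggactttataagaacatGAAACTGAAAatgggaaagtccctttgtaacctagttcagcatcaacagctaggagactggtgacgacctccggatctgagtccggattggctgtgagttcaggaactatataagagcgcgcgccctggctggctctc

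The Isg15 stretch held 3 overlapping cores, those of Ifit1, Ifit3 and Ifit3b held 2 each, and those of Rsad2 and B2m held 1 each. The Ifit3 and Ifit3b stretches shared an unbroken run of 169 bases with both cores in it. The stretch of H2-K1, a class I heavy chain gene, lies at chr17:34000348-34000597 on the minus strand. It held no exact match to this core, and variants of the element were not searched, so their absence is not shown. It held a core of the NF-kappa-B site, GGGNNTTCC on either strand, which is in capitals in its line.
H2-K1: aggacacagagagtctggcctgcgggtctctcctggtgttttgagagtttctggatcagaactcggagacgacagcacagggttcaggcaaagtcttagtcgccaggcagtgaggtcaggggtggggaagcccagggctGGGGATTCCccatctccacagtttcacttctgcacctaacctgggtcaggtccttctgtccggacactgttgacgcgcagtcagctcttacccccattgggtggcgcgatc

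For the counts in this paragraph, a promoter window is the 250 bases before the transcript start, with exon bases kept. A window was found for 29 of the 36 members. Of these, 10 held the response element core: Stat2, Ifit1, Ifit3, Ifit3b, Oas1a, Rsad2, Bst2, Isg15, Trim30a and B2m. The core stood in 2.98% of all windows and in 3.46% of all genes with a window. The core of the gamma-activated site, TTCNNNGAA, stood in 5 of the 29 members, Irf1, Ifit2, Oas1a, Bst2 and Psmb8, and in 8.13% of genes. The NF-kappa-B core stood in 3, Bst2, H2-K1 and H2-D1, and in 5.62% of genes. The windows of Psmb8 and H2-D1 lie wholly in annotated exons, so their matches are in exon sequence. Tap1 and Psmb9 are divergent neighbours whose windows held the same 225 bases on opposite strands. A match is a run of letters and not a shown binding site.

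The first comparison asked how the sorted TOM positive cells differed from the remaining hypothalamic cells. Class I presentation genes were lower in TOM positive cells: 3 of 3 genes of the class I molecule and 6 of 6 of peptide processing, transport and loading fell. Over all genes tested, 13.4% fell. Of the 6, Psmb9 passed the count filter only through the TOM negative libraries. B2m fell by 3.52, H2-D1 by 3.12 and H2-K1 by 2.48 on the log2 scale. The antiviral genes were uneven: Rsad2, Bst2 and Ifitm3 fell, while Ifit2, Ifit3b, Mx2 and Cmpk2 did not pass the threshold and had fold changes on either side of 0.

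Of the 36 members, 32 had enough counts to be tested with the quasi-likelihood test of edgeR. Of these, 17 fell, 0 rose and 15 did not pass an adjusted p of 0.05. Over all 15228 genes tested, 13.4% fell and 10.4% rose. Without TOM negative replicate 2, 10 members fell, with fewer genes called overall as well (1511 in place of 3635), and without TOM negative replicate 3 one member, Ifit2, rose. No member had an unadjusted p under 0.05 in the higher direction, where 16.9% of all genes did, and DESeq2 called 22 lower and 0 higher. The median log2 fold change of the 32 was -2.61, beside -0.02 over all genes tested. The lowest TOM negative library lay above the highest TOM positive library for 23 of the 32, where 25.6% of all genes did so and 20.8% did the reverse. No tested member did the reverse. Scaling moved the balance over all genes: 43.7% of called genes were higher with TMM factors and 59.0% without scaling factors, which shifted all fold changes by a median of 0.26, while 17 members fell under both.

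The count filter bears on these numbers. Of the 32 tested members, 20 passed the filter through both groups and 13 of these fell. A further 11 passed only through the TOM negative libraries, which favours genes that are higher there, and 4 of these fell. Those 4 were Rsad2, Bst2, Trim30a and Psmb9, so their calls are not independent of the filter. The same 4, with Irf7, Oas1a, Ifih1 and Isg15 of the 11, are among the 23 members whose groups did not overlap. For them the lack of overlap is not independent of the filter either, and the median of the 32 includes all 11. The remaining tested member, Ifit2, passed only through the TOM positive libraries. Not tested were Ifit1, Mx1, Ifi44 and Nlrc5.

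**Figure D1:**
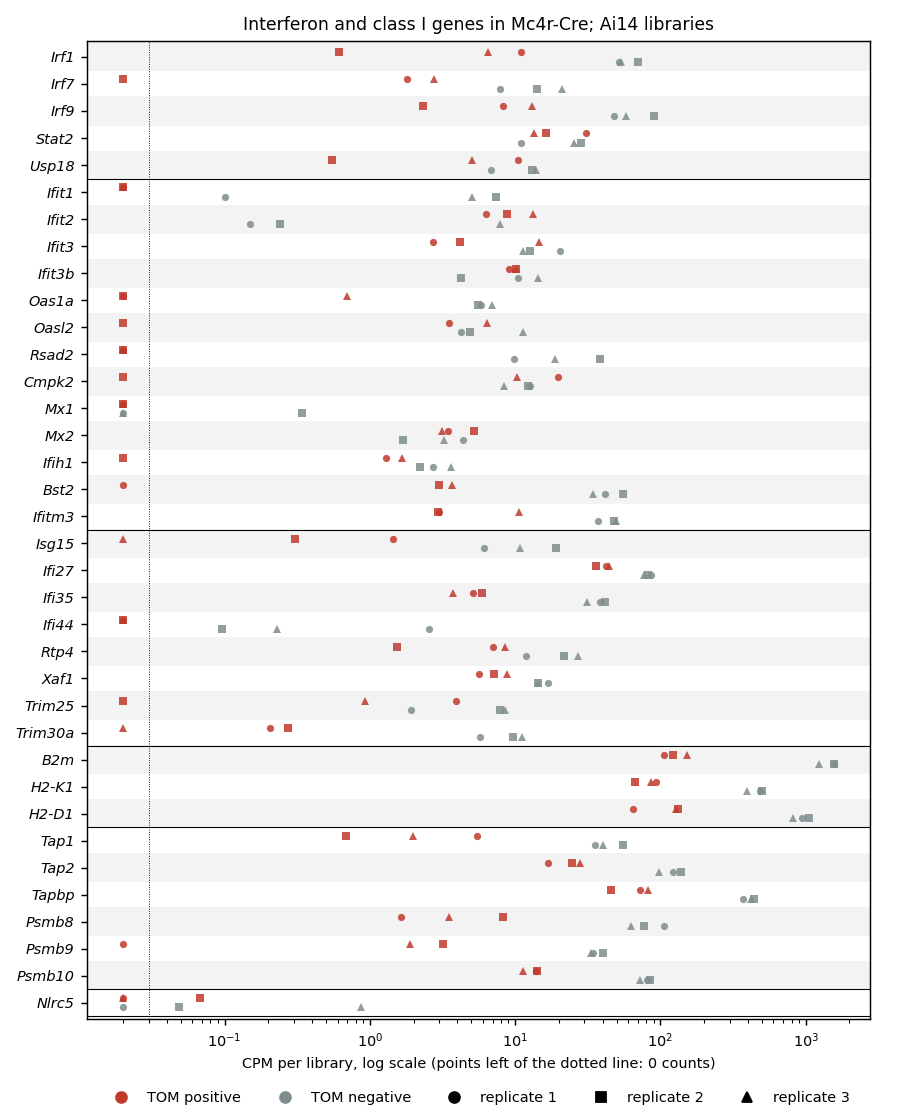
CPM (counts scaled to the size of the library) of the 36 members in each library, on a log axis, with TOM positive libraries above TOM negative ones in each row and lines between the role groups. The class I and peptide processing rows show 2 separate clusters of 3 points each, while Stat2, Ifit3b, Cmpk2 and Mx2 overlap.

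B2m was the most abundant member in both groups. B2m had 106, 121 and 152 CPM in TOM positive replicates 1, 2 and 3, against 1557, 1566 and 1238 CPM in the TOM negative ones. Every TOM negative library was far above every TOM positive one. The log2 fold change was -3.52 ± 0.20 (SE; edgeR adjusted p = 0.000106). H2-D1, a classical class I heavy chain, had 65.0, 131 and 127 CPM in TOM positive libraries, against 937, 1048 and 820.1 CPM in TOM negative ones (-3.12 ± 0.29, edgeR adjusted p = 0.000664). H2-K1, the other classical heavy chain, had 93.8, 66.6 and 85.8 CPM in TOM positive libraries, against 481, 497 and 394 CPM in TOM negative ones (-2.48 ± 0.19, edgeR adjusted p = 0.000315). For both heavy chains the groups stood apart, and within TOM positive cells replicate 1 was the lowest for H2-D1 and the highest for H2-K1. Of the 50-base stretches of their transcripts, 12.8% of those of H2-D1 and 9.63% of those of H2-K1 also occur in other genes, so some reads of these paralogs could be lost or shared.

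Together the 3 genes took 0.0292%, 0.0351% and 0.0395% of the counts in TOM positive libraries, against 0.264%, 0.279% and 0.233% in TOM negative libraries. Per transcript length, as length-scaled abundance (TPM), B2m stood at 3.88, 6.22 and 6.07 times the H2-K1 level in TOM positive libraries, against 11.1, 10.8 and 10.7 times in TOM negative ones. The groups did not overlap in this ratio. They did overlap for B2m over H2-D1, at 4.91, 2.77 and 3.60 in TOM positive libraries, against 4.98, 4.48 and 4.53 in TOM negative ones.

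The immunoproteasome is made when the subunits encoded by Psmb8, Psmb9 and Psmb10 replace the constitutive ones encoded by Psmb5, Psmb6 and Psmb7. Psmb8 had 1.64, 8.25 and 3.49 CPM in TOM positive libraries, against 106, 77.0 and 62.8 CPM in TOM negative ones (-4.19 ± 0.60, edgeR adjusted p = 0.00373). Psmb10 had 14.0, 14.2 and 11.4 CPM in TOM positive libraries, against 80.6, 85.1 and 72.6 CPM in TOM negative ones (-2.59 ± 0.22, edgeR adjusted p = 0.000439). In both genes all 3 TOM positive libraries were low, and without TOM positive replicate 2 the Psmb8 value was -4.98. Psmb9 had 0, 3.20 and 1.90 CPM in TOM positive libraries, against 34.6, 40.1 and 33.1 CPM in TOM negative ones (-4.38 ± 1.16, edgeR adjusted p = 0.0319). The Psmb9 call was lost without TOM positive replicate 3 or without any one TOM negative library (edgeR adjusted p between 0.0745 and 0.107), and the value was -5.17 without TOM positive replicate 2.

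Set against their counterparts in the same library, the inducible subunits were low in TOM positive cells. In TPM, Psmb8 stood at 0.00520, 0.0235 and 0.0106 of Psmb5 in TOM positive libraries, against 0.152, 0.145 and 0.161 in TOM negative ones. Psmb10 stood at 0.391, 0.424 and 0.373 of Psmb7 in TOM positive libraries, against 2.07, 2.87 and 2.79 in TOM negative ones. Neither ratio overlapped between the groups. A list of 14 tested genes held these constitutive counterparts, Psmb5, Psmb6 and Psmb7, and other subunits of the proteasome core. Of the 14, 3 fell, where 13.4% of all genes tested did, and their median log2 fold change was -0.32. That count is frail: it was 0 without any one TOM positive library or without TOM negative replicate 2, 2 without TOM negative replicate 1 and 4 without TOM negative replicate 3. Psmb4, with -0.67, and Psmb6, with -0.74, had the smallest p (edgeR adjusted p = 0.0305 and 0.031).

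The peptide transporter and its partner were lower as well. Tap1, one half-transporter, had 5.49, 0.682 and 2.00 CPM in TOM positive libraries, against 35.4, 55.7 and 40.0 CPM in TOM negative ones (-4.02 ± 0.75, edgeR adjusted p = 0.00978). Tap2, the other half-transporter, had 16.7, 24.5 and 28.1 CPM in TOM positive libraries, against 122, 138 and 97.5 CPM in TOM negative ones (-2.36 ± 0.26, edgeR adjusted p = 0.00131). All 3 TOM positive libraries were below all 3 TOM negative ones for both genes. Without TOM positive replicate 1 the Tap1 value was -5.02. Tapbp, which encodes tapasin, had 72.1, 45.4 and 82.7 CPM in TOM positive libraries, against 373, 439.7 and 419.8 CPM in TOM negative ones (-2.62 ± 0.24, edgeR adjusted p = 0.000644). Exons of other annotated genes cover 33.1% of the exon bases of Tapbp, 18.5% of those of Tap2 and 14.7% of those of Psmb8, so reads there may be lost or unassigned, and no strand was used where the counting is described. Tap1 and Psmb9 share 212 exon bases.

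Nlrc5 was too low to test. It had 0, 2 and 0 counts in TOM positive libraries, against 0, 1 and 19 in TOM negative libraries. Scaled to library size, TOM negative cells had 12.7 times the TOM positive level, with an exact 95% interval of 3.07 to 112 that covers counting error only. Nearly all of these counts came from TOM negative replicate 3.

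Among the 5 genes of the interferon signal, 2 fell, both transcription factors, where 13.4% of all genes tested fell. Irf1, which encodes the factor induced by interferon gamma, had 11.0, 0.613 and 6.52 CPM in TOM positive libraries, against 51.9, 70.6 and 53.5 CPM in TOM negative ones (-3.28 ± 0.86, edgeR adjusted p = 0.0313). Irf9, the DNA-binding part of the type I complex, had 8.26, 2.32 and 13.0 CPM in TOM positive libraries, against 48.1, 90.1 and 58.0 CPM in TOM negative ones (-3.06 ± 0.62, edgeR adjusted p = 0.0125). The groups stood apart for both, with TOM positive replicate 2 the lowest. The Irf1 call was lost without TOM positive replicate 3 or any one TOM negative library (edgeR adjusted p between 0.0675 and 0.102), and its value was -4.04 without TOM positive replicate 1. Irf9 lost its call once TOM negative replicate 2 was left out (edgeR adjusted p = 0.0606). Gm17334, an overlapping gene, covers 20.0% of the exon bases of Irf1.

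The other 3 signal genes did not pass. Irf7, the factor that amplifies type I interferon, had 1.80, 0 and 2.76 CPM in TOM positive libraries, against 7.90, 14.0 and 20.9 CPM in TOM negative ones (-3.23 ± 1.37, edgeR adjusted p = 0.136). It passed without TOM positive replicate 2 (-2.65, edgeR adjusted p = 0.029) and was at -4.02 without TOM positive replicate 3. Stat2 had 30.9, 16.3 and 13.5 CPM in TOM positive libraries, against 11.0, 28.4 and 25.4 CPM in TOM negative ones, and the groups overlapped (-0.10 ± 0.49). Usp18, a protease that removes ISG15 and damps the receptor, also overlapped, with 10.4, 0.545 and 5.09 CPM in TOM positive libraries, against 6.84, 13.1 and 14.0 CPM in TOM negative ones.

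Of the 13 RNA sensing and antiviral genes, 11 were tested and 3 fell, where 13.4% of all genes tested fell. Rsad2 had 0 counts in each TOM positive library, against 196, 795 and 412 counts in TOM negative libraries, which makes it at least 592-fold lower in TOM positive cells when 3 counts over the group are taken as the limit (edgeR adjusted p = 0.00286). Bst2, which encodes tetherin, a membrane protein that holds budding virus, had 0, 3.00 and 3.66 CPM in TOM positive libraries, against 41.6, 55.3 and 34.2 CPM in TOM negative ones (-4.28 ± 1.16, edgeR adjusted p = 0.0345). Neither gene overlapped between the groups. Ifitm3, a membrane protein that blocks viral entry, had 2.98, 2.96 and 10.6 CPM in TOM positive libraries, against 36.9, 47.7 and 49.4 CPM in TOM negative ones (-3.01 ± 0.58, edgeR adjusted p = 0.0106). The Bst2 call was lost in every fit without one library except the one without TOM positive replicate 1 (edgeR adjusted p between 0.0527 and 0.123), whereas Ifitm3 lost its call once TOM negative replicate 2 was left out (edgeR adjusted p = 0.0507) and was at -3.91 without TOM positive replicate 3.

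The 4 Ifit genes lie close together on chromosome 19. Ifit1 had 0 counts in each TOM positive library, against 2, 152 and 110 in TOM negative libraries, at least 111-fold lower in TOM positive cells, and was not tested. Ifit2, another RNA-binding family member, went the other way without passing: it had 6.31, 8.76 and 13.3 CPM in TOM positive libraries, against 0.151, 0.242 and 7.88 CPM in TOM negative ones (1.78 ± 1.39, edgeR adjusted p = 0.409). TOM negative replicate 3 alone reached the TOM positive range, and without it Ifit2 was higher in TOM positive cells (5.52, edgeR adjusted p = 0.0154). Ifit3 and Ifit3b overlapped between the groups, with 2.72, 4.16 and 14.6 CPM of Ifit3 in TOM positive libraries, against 20.5, 12.6 and 11.4 CPM in TOM negative ones. Their transcripts share 51.2% of the 50-base stretches of Ifit3, so the split of reads between them is uncertain.

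Of the remaining antiviral genes, Oas1a, a double-stranded RNA sensor, had 0, 0 and 0.699 CPM in TOM positive libraries, against 5.84, 5.57 and 6.92 CPM in TOM negative ones (-4.65 ± 1.75, edgeR adjusted p = 0.0983). The groups did not overlap, and the gene passed without TOM positive replicate 3, the one TOM positive library with a count (edgeR adjusted p = 0.0104). Its transcript shares 57.6% of its 50-base stretches with Oas1g. Oasl2, Cmpk2, Mx2 and Ifih1 did not pass (edgeR adjusted p between 0.499 and 0.953). Oasl2 is a relative of Oas1a, and Cmpk2 encodes a nucleotide kinase and lies next to Rsad2. Mx2 encodes a dynamin-like antiviral protein, and Ifih1 encodes the RNA sensor MDA5. Mx1, the paralog of Mx2, had 7 counts in TOM negative replicate 2 and 0 in every other library of either group.

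Among the 8 other interferon-induced genes, 7 were tested and 3 fell, where 13.4% of all genes tested fell. Ifi35, an interferon-induced leucine zipper protein gene, had 5.13, 5.93 and 3.73 CPM in TOM positive libraries, against 38.5, 41.8 and 31.4 CPM in TOM negative ones (-2.92 ± 0.34, edgeR adjusted p = 0.00169). Trim30a had 0.205, 0.273 and 0 CPM in TOM positive libraries, against 5.73, 9.73 and 11.1 CPM in TOM negative ones (-5.77 ± 1.27, edgeR adjusted p = 0.017). Ifi27 showed the smallest of the called changes, with 42.5, 35.8 and 44.4 CPM in TOM positive libraries, against 86.1, 81.7 and 76.5 CPM in TOM negative ones (-0.99 ± 0.19, edgeR adjusted p = 0.00989). All 3 genes stood apart between the groups. Without TOM negative replicate 2 the Ifi27 call was lost (edgeR adjusted p = 0.0528), as was that of Trim30a (0.0707), which was also lost without TOM negative replicate 3 (0.0583). The Trim30a value was -6.50 without TOM positive replicate 2 and -5.18 without TOM positive replicate 3.

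Isg15 did not pass, although the groups did not overlap: it had 1.44, 0.307 and 0 CPM in TOM positive libraries, against 6.14, 19.2 and 10.9 CPM in TOM negative ones (-4.40 ± 1.45, edgeR adjusted p = 0.0663). It passed without TOM positive replicate 1 (-6.26, edgeR adjusted p = 0.0413) or 3 (-3.80, edgeR adjusted p = 0.0478). Rtp4, a chaperone of cell-surface receptors, Xaf1, a pro-apoptotic factor, and Trim25, the ubiquitin ligase that activates the RNA sensor RIG-I, did not pass (edgeR adjusted p between 0.0981 and 0.426). Ifi44 had 0 counts in each TOM positive library, against 51, 2 and 5 in TOM negative libraries, so that most of its 58 counts came from TOM negative replicate 1.

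The wider pathway was read from lists of genes that are not members, with the same test over all genes. Beside the counts in this and the next paragraph stands the 13.4% of all genes tested that fell. No interferon gene was expressed widely: of 21 interferon ligand genes, 3 had any count, each in a single TOM negative library, with 11 of Ifnz, 18 of Ifnb1 and 10 of Ifng. Of 8 tested receptor and kinase genes, 4 fell, all of them receptor chains. Ifngr1, which binds interferon gamma, had 51.0, 87.2 and 96.1 CPM in TOM positive libraries, against 802, 781 and 745 CPM in TOM negative ones (-3.31 ± 0.26, edgeR adjusted p = 0.000332). Il10rb fell by 3.03, Ifngr2 by 2.12 and Ifnar2 by 2.00 on the log2 scale, whereas Ifnar1 and the kinase genes Jak1, Jak2 and Tyk2 did not pass.

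Of 9 other STAT, IRF and feedback genes, 6 fell, led by the myeloid factors Irf5, with -4.89, and Irf8, with -5.12. Irf8 had 12.9, 7.53 and 7.82 CPM in TOM positive libraries, against 291, 349 and 338 CPM in TOM negative ones (edgeR adjusted p = 9.75e-05). Of 43 other interferon-induced genes tested, 20 fell, among them Ly6e with -4.67 and Slfn2 with -3.67, and 12 fell without TOM negative replicate 2 and 13 without TOM negative replicate 3. None of that list rose, with 1 at an unadjusted p under 0.05 in that direction and 1 called higher by DESeq2, while 2 rose without TOM positive replicate 1. Of 11 other class I genes tested, 4 fell, and 6 without TOM positive replicate 2; Fcgrt, the neonatal Fc receptor, fell by 3.06 and H2-T23, the mouse counterpart of HLA-E, by 3.92. Among the 8 loading chaperones and peptidases, the proteasome activator genes Psme1 and Psme2 fell by 2.15 and 1.60, Calr by 1.04 and Tapbpl by 1.73. Of 14 tested sensor and adaptor genes 6 fell, led by Unc93b1, which carries Toll-like receptors to the endosome, with -4.59, and 3 fell without TOM negative replicate 2. Of 8 tested class II genes 3 fell, but 7 without TOM positive replicate 3, 2 without TOM negative replicate 3 and 1 without TOM negative replicate 1 or 2.

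Markers of several other cell types were lower in the TOM positive libraries as well, though not those of oligodendrocytes, which rose (9 of 9, median log2 fold change 1.40). All 17 microglia markers fell, with a median log2 fold change of -5.24, and they took 0.0813%, 0.0630% and 0.138% of the counts in TOM positive libraries, against 3.25%, 3.29% and 2.92% in TOM negative libraries. None of the 17 was at 0 in any of the 6 libraries. The 13 endothelial markers took 0.0116%, 0.00288% and 0.0238% in TOM positive libraries, against 0.0855%, 0.106% and 0.0989% in TOM negative ones, with 2, 10 and 0 of them at 0 in the TOM positive libraries. The 15 lymphocyte markers took 0.00221%, 0.00308% and 0.00107% in TOM positive libraries, against 0.0106%, 0.00941% and 0.00770% in TOM negative ones. All 5 blood markers fell, with a median of -6.78, and took 0.0399%, 0.0246% and 0.0479% in TOM positive libraries, against 2.01%, 4.61% and 2.97% in TOM negative ones. Of the 7 tested markers of border macrophages and monocytes, 1 fell and 5 had a positive fold change. The part of these cell types in the fall of the interferon and class I genes was not tested.

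The second comparison asked what changed in PVH cells after deletion of Otp. The interferon and class I genes leaned toward AAV-Cre cells, but none passed the threshold. H2-D1 came nearest among those that were higher, with 1089.8, 2846 and 857 CPM in AAV-Cre libraries, against 405, 313 and 390.2 CPM in AAV-GFP ones, and Ifitm3 among those that were lower, with 8.10, 29.4 and 10.7 CPM in AAV-Cre libraries, against 85.1, 52.1 and 82.3 CPM in AAV-GFP ones. AAV-Cre replicate 2 carried the highest level of most members.

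Of the 36 members, 34 were tested, with Mx1 and Nlrc5 too low, and edgeR called 0 higher and 0 lower at an adjusted p of 0.05. Over all 15408 genes tested, 0.63% rose and 1.97% fell. At an unadjusted p under 0.05, 7 members were higher and 1 lower, beside 6.7% and 12.1% of all genes, and DESeq2 called 3 higher, H2-D1, H2-K1 and Oas1a, and 1 lower, Ifitm3. The log2 fold change was positive for 28 of the 34, where it was positive for 42.8% of all genes, and its median was 0.89, beside -0.16 over all genes. The lowest AAV-Cre library lay above the highest AAV-GFP library for 6 members, where 9.85% of all genes did so. The reverse held for 2, Ifitm3 and Mx2, where it held for 18.6% of all genes. Of the 34, 29 passed the count filter through both groups. The other 5, Rsad2, Mx2, Ifih1, Ifi44 and Tap1, passed only through the AAV-GFP libraries, which favours genes that are higher there. The separation of Mx2 is thus not independent of the filter. Of all called genes, 24.3% were higher with TMM factors, 34.5% without scaling factors, which moved all fold changes by a median of 0.16, and 36.7% in DESeq2. The number of genes called in all was itself unstable, with 400 in the full set, 122 without AAV-Cre replicate 2 and 0, 2 and 0 without AAV-GFP replicate 1, 2 or 3.

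The lean rests largely on 1 library. AAV-Cre replicate 2 held the highest CPM of the 6 libraries for 30 of the 36 members and the highest of the 3 AAV-Cre libraries for 33. Without it, 20 of 34 fold changes were positive, their median was 0.30, no member was called higher and Ifitm3 was called lower (-2.96, edgeR adjusted p = 0.0479). Among the members given with a fold change in the next paragraphs, Usp18 was then at 0.79, Oas1a at 1.83, Psmb9 at 0.66 and Ifit3 at 0.47. The 13 RNA sensing and antiviral genes took 0.0447%, 0.0965% and 0.0266% of the counts in AAV-Cre libraries, against 0.0476%, 0.0277% and 0.0223% in AAV-GFP ones, which overlap.

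**Figure D2:**
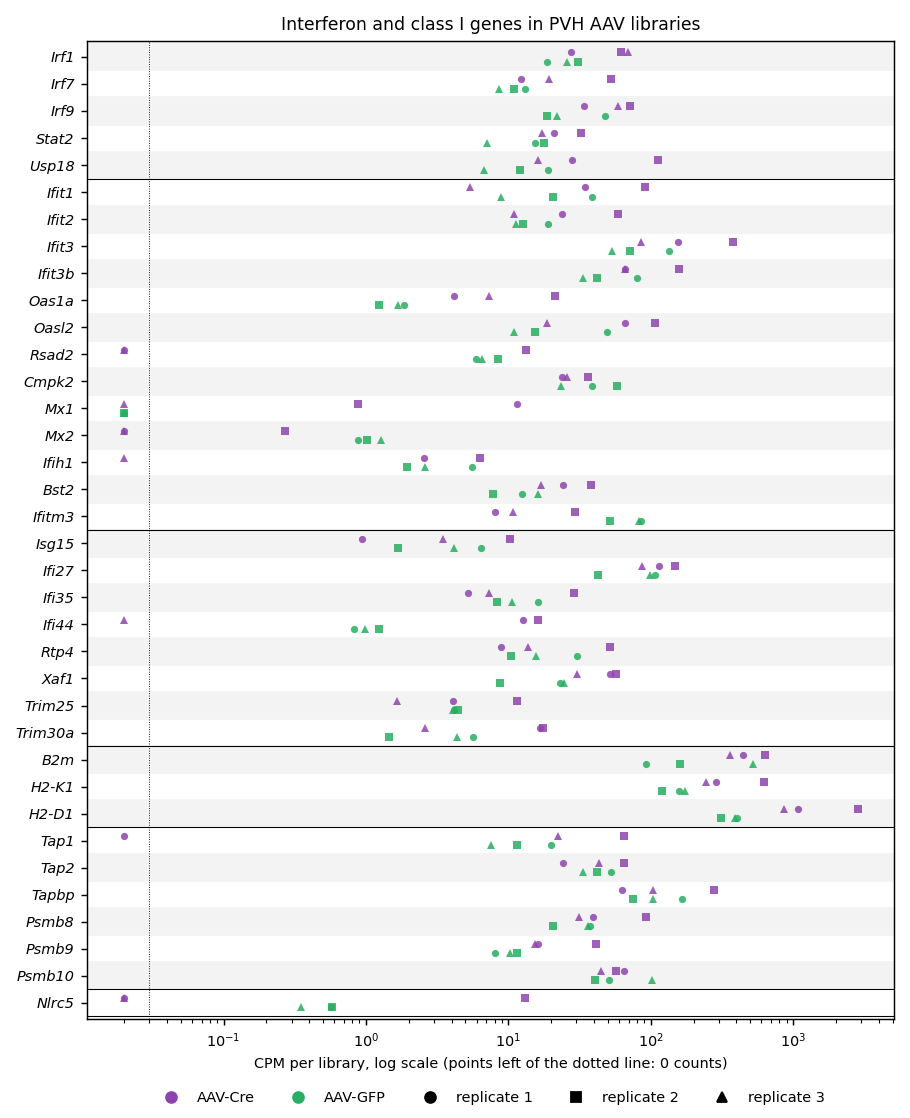
CPM of the 36 members in each PVH library, on a log axis, with AAV-Cre libraries above AAV-GFP ones in each row and lines between the role groups. Squares, which are replicates 2, lie to the right of the other AAV-Cre points in 33 of 36 rows, and H2-K1, H2-D1, Psmb9, Oas1a, Bst2 and Xaf1 are the 6 tested rows where all AAV-Cre points lie right of all AAV-GFP points.

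Of the class I molecule, both heavy chains stood apart between the groups and the light chain did not. The H2-D1 log2 fold change was 2.11 ± 0.48 (edgeR adjusted p = 0.057), and 1.39 without AAV-Cre replicate 2. H2-K1 had 289.7, 624 and 245 CPM in AAV-Cre libraries, against 158, 119 and 174 CPM in AAV-GFP ones (1.36 ± 0.40, edgeR adjusted p = 0.123). B2m had 448, 640.0 and 361 CPM in AAV-Cre libraries, against 93.1, 160.2 and 525 CPM in AAV-GFP ones (0.90 ± 0.61, edgeR adjusted p = 0.496). The B2m level of AAV-GFP replicate 3 lay within the AAV-Cre range, and without that library the B2m value was 2.02. Summed, the 3 genes took 0.194%, 0.421% and 0.158% of the counts in AAV-Cre libraries, against 0.0659%, 0.0562% and 0.0963% in AAV-GFP libraries, so every AAV-Cre library was above every AAV-GFP library.

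The balance between the heavy chains also differed. In TPM, H2-D1 stood at 4.29, 5.20 and 3.99 times H2-K1 in AAV-Cre libraries, against 2.92, 2.99 and 2.56 times in AAV-GFP ones. The ratio was higher in each AAV-Cre library than in any AAV-GFP library. With 3 libraries a group, an exact permutation test of a single ratio cannot go below a two-sided p of 0.1.

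The presentation machinery did not pass anywhere. Psmb9 had 16.1, 41.4 and 15.5 CPM in AAV-Cre libraries, against 8.12, 11.5 and 10.2 CPM in AAV-GFP ones, with no overlap (1.29 ± 0.54, edgeR adjusted p = 0.251). Tap1 had 0, 65.1 and 22.4 CPM in AAV-Cre libraries, against 20.1, 11.5 and 7.53 CPM in AAV-GFP ones. Within the AAV-Cre group Tap1 thus had both the lowest and the highest level of the 6 libraries. Psmb8, Psmb10, Tap2 and Tapbp overlapped, with log2 fold changes between -0.22 and 0.80. In TPM, Psmb9 stood at 0.0469, 0.0766 and 0.0391 of Psmb6 in AAV-Cre libraries, against 0.00796, 0.0244 and 0.0113 in AAV-GFP ones, without overlap. Psmb8 set against Psmb5 overlapped, at 0.0834, 0.221 and 0.0912 in AAV-Cre libraries, against 0.0957, 0.0461 and 0.0372 in AAV-GFP ones. Psmb10 set against Psmb7 overlapped as well, at 1.995, 2.90 and 1.54 in AAV-Cre libraries, against 2.52, 3.53 and 2.35 in AAV-GFP ones. Of the 14 constitutive counterparts and other core subunits, 13 had negative fold changes, with a median of -0.54, and edgeR called 0. A ratio can therefore also move through its denominator. Nlrc5 had 192 counts in AAV-Cre replicate 2 and 0 in the other AAV-Cre libraries, against 11, 8 and 5 counts in AAV-GFP libraries.

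**Figure D3:**
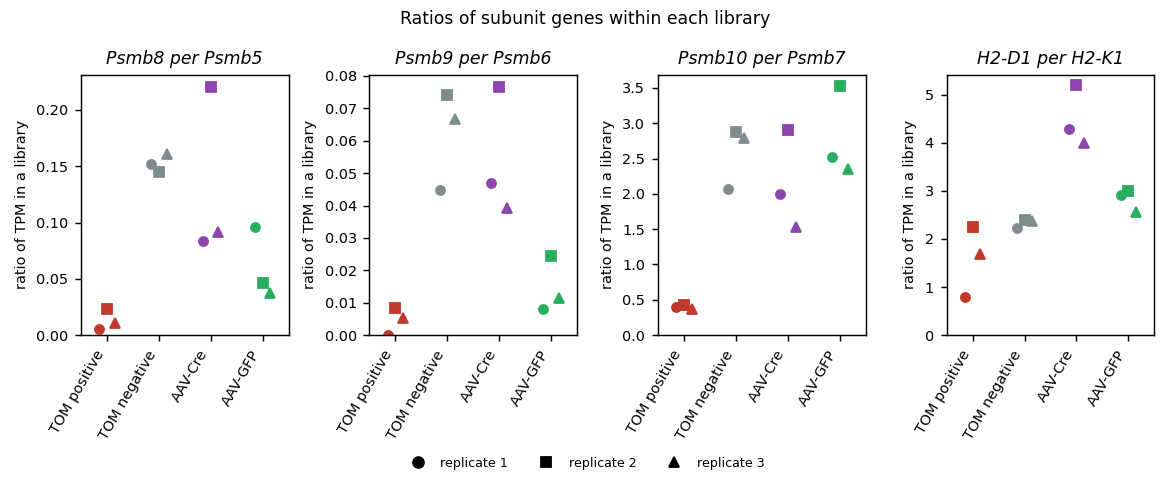
Ratios of TPM within each of the 12 libraries, one point per library, for each inducible proteasome subunit over its constitutive counterpart and for H2-D1 over H2-K1. Psmb10 per Psmb7 is 0.424 or less in TOM positive libraries and 1.54 or more in the other 9, and H2-D1 per H2-K1 is 3.99 or more only in the AAV-Cre libraries.

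Among the antiviral genes, Oas1a had 4.18, 21.4 and 7.28 CPM in AAV-Cre libraries, against 1.86, 1.23 and 1.69 CPM in AAV-GFP ones (2.77 ± 0.86, edgeR adjusted p = 0.136). Bst2 had 24.4, 37.8 and 17.0 CPM in AAV-Cre libraries, against 12.6, 7.83 and 16.2 CPM in AAV-GFP ones (1.11 ± 0.49, edgeR adjusted p = 0.275). Neither overlapped, although the Bst2 ranges nearly met. Ifit1, Ifit2, Ifit3 and Ifit3b were each highest in AAV-Cre replicate 2 and lower in AAV-Cre replicate 3 than in AAV-GFP replicate 1. Ifit3, for example, had 156, 381 and 85.3 CPM in AAV-Cre libraries, against 136, 71.2 and 53.5 CPM in AAV-GFP ones (1.26 ± 0.59, edgeR adjusted p = 0.306). Mx1 had 185, 13 and 0 counts in AAV-Cre libraries, against 0 in each AAV-GFP library, at least 68.9-fold higher in AAV-Cre cells when 3 counts over the AAV-GFP group are taken as the limit. Most of these Mx1 counts were in replicate 1, whereas Mx2 had 0, 4 and 0 counts in AAV-Cre libraries, against 17, 14 and 18 in AAV-GFP ones.

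Ifitm3 had the smallest p of the members with a negative fold change (-2.19 ± 0.54, edgeR adjusted p = 0.0676). All 3 AAV-Cre libraries were below all 3 AAV-GFP libraries. Rsad2, Cmpk2 and Ifih1 also had negative fold changes with overlapping groups. Rsad2 had 0, 13.4 and 0 CPM in AAV-Cre libraries, against 5.95, 8.48 and 6.54 CPM in AAV-GFP ones.

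Of the 5 signal genes, all had positive fold changes and overlapping groups. Usp18 had 27.8, 113 and 16.1 CPM in AAV-Cre libraries, against 19.0, 12.1 and 6.76 CPM in AAV-GFP ones (2.05 ± 0.77, edgeR adjusted p = 0.207). Irf1 had 27.5, 62.1 and 69.1 CPM in AAV-Cre libraries, against 18.7, 31.1 and 25.8 CPM in AAV-GFP ones (1.07 ± 0.42, edgeR adjusted p = 0.226). AAV-Cre replicate 2 was the peak for Usp18 but not for Irf1. Among the other interferon-induced genes, Xaf1 stood apart, with 51.9, 57.1 and 30.4 CPM in AAV-Cre libraries, against 23, 8.77 and 24.6 CPM in AAV-GFP ones (1.31 ± 0.48, edgeR adjusted p = 0.197). Isg15, Ifi27, Ifi35, Ifi44, Rtp4, Trim25 and Trim30a overlapped, with log2 fold changes between 0.24 and 3.23. Ifi44, whose fold change was the largest of these, had 202, 239 and 0 counts in AAV-Cre libraries, against 16, 17 and 14 in AAV-GFP ones.

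Outside the member list, the class I gene H2-Q6 had 13.8, 23.4 and 8.18 CPM in AAV-Cre libraries, against 0.259, 0.435 and 0.844 CPM in AAV-GFP ones (4.87 ± 0.85, edgeR adjusted p = 0.0357). Its near-identical neighbour H2-Q7 had 13.0, 25.0 and 7.08 CPM in AAV-Cre libraries, against 0.931, 0.870 and 1.90 CPM in AAV-GFP ones (3.60 ± 0.79, edgeR adjusted p = 0.0546). Reads of such paralogs may be split between them. H2-Q6 was the one gene of 10 tested in its list that rose, with 2 rising without AAV-Cre replicate 1 and 0 without AAV-Cre replicate 2 or without any one AAV-GFP library. Of the 14 tested sensor and adaptor genes, Ikbke fell, with 0, 1 and 0 counts in AAV-Cre libraries, against 263, 39 and 51 in AAV-GFP ones (edgeR adjusted p = 0.0497), a call lost without any one library. The 54 tested other interferon-induced genes had a median log2 fold change of 1.02, and edgeR called 0, with 8 higher and 3 lower at an unadjusted p under 0.05 (6.7% and 12.1% of all genes) and 5 higher and 2 lower in DESeq2. One of them rose without AAV-Cre replicate 1. Of the interferon ligands, Ifng alone had counts, 2, 0 and 4 in the AAV-GFP libraries and 0 in the AAV-Cre ones.

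The summed shares of microglia and of oligodendrocyte markers were each higher in every AAV-Cre library than in any AAV-GFP library. The 17 microglia markers took 0.913%, 1.55% and 0.797% of the counts in AAV-Cre libraries, against 0.455%, 0.318% and 0.605% in AAV-GFP libraries, and none was at 0 in any library. One of them, Csf1r, rose (1.51 ± 0.27, edgeR adjusted p = 0.0398), a call lost without any one library, and 16 of the 17 fold changes were positive, with a median of 0.95. The 13 endothelial markers went the other way, at 0.00387%, 0.00371% and 0.00771% of the counts in AAV-Cre libraries, against 0.0622%, 0.0508% and 0.0732% in AAV-GFP ones, with 11, 7 and 3 of them at 0 in the AAV-Cre libraries. The 6 ependymal markers were also lower, at 0.00169%, 0.00209% and 0.00246% in AAV-Cre libraries, against 0.162%, 0.0764% and 0.0844% in AAV-GFP ones. Blood markers took at most 0.00438% in AAV-Cre libraries, against at least 0.0671% in AAV-GFP ones. The 9 oligodendrocyte markers took 5.16% to 6.32% in AAV-Cre libraries, against 1.37% to 4.73% in AAV-GFP ones. The part of these cell types in the class I and Ifitm3 differences was not tested.

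**Figure D4:**
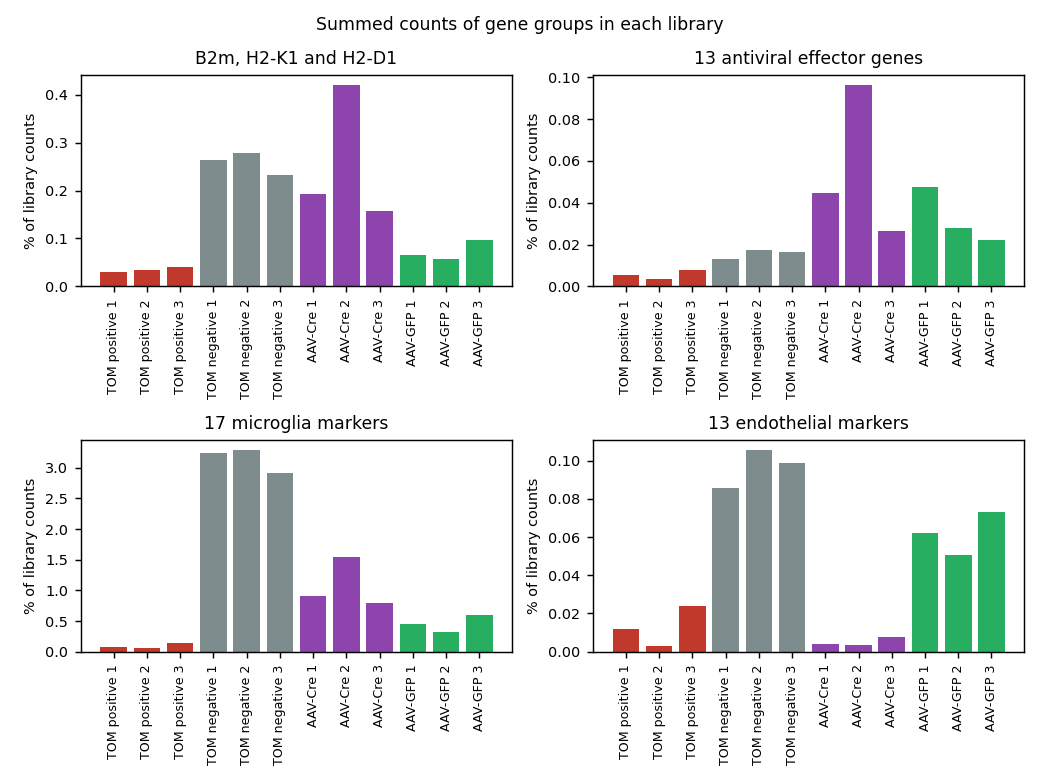
Share of all counts in each of the 12 libraries taken by B2m, H2-K1 and H2-D1, by the 13 antiviral genes, by 17 microglia markers and by 13 endothelial markers, as bars that start at 0. AAV-Cre replicate 2 has the tallest bar for class I, at 0.421%, and for antiviral genes, at 0.0965%, and the highest microglia share of the PVH libraries, at 1.55%.

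**Figure D5:**
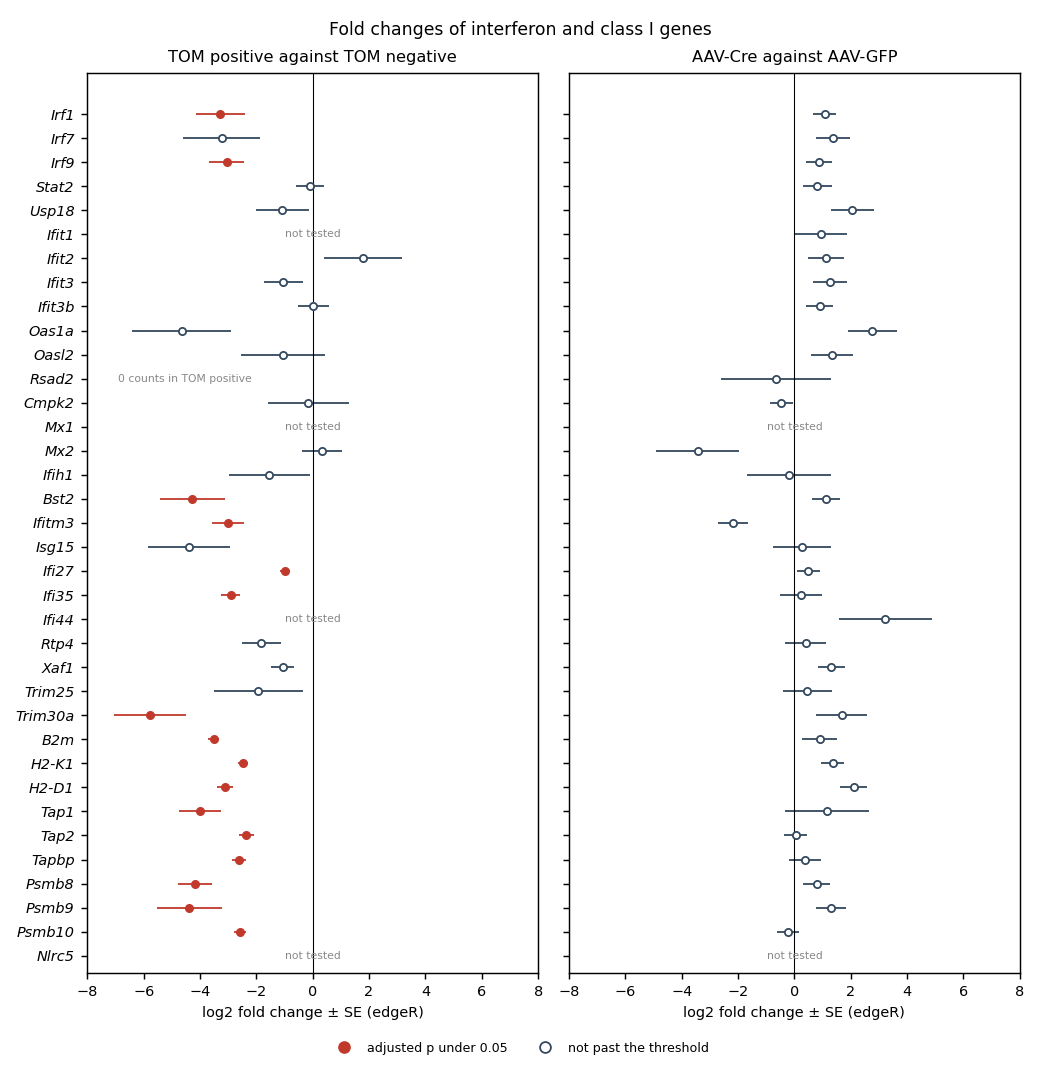
Log2 fold changes of the members with their SE in both comparisons, filled where the edgeR adjusted p is under 0.05. In the first comparison 17 members fell, 16 of which are drawn because Rsad2 had 0 counts in TOM positive cells, and in the second none passed.

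Set side by side, levels within a group show which members dominate. Levels in this paragraph are TPM, mean ± SD over 3 libraries, and the AAV and TOM tables were scaled separately. In TOM positive cells B2m stood at 549 ± 95.9, H2-D1 at 155 ± 51.1, H2-K1 at 104 ± 19.6 and Ifi27 at 104 ± 12.6. In TOM negative cells B2m stood at 4043 ± 226, H2-D1 at 868 ± 58.3, H2-K1 at 372 ± 18.9 and Tapbp at 273 ± 34.7. H2-K1 and Ifi27 thus did not differ beyond their spread in TOM positive cells, while the first 3 places were distinct in TOM negative cells. In AAV-Cre cells H2-D1 stood at 2138 ± 1369, B2m at 1957 ± 503, H2-K1 at 455 ± 225 and Ifit3 at 410.0 ± 289.6. In AAV-GFP cells B2m stood at 767 ± 561, H2-D1 at 399 ± 69.0, Ifitm3 at 299 ± 74.8 and Ifi27 at 155 ± 65.8. The AAV-GFP value of B2m rests on replicate 3, with 1399.8 TPM, where the other two had 329 and 572 TPM, so its place above H2-D1 and Ifitm3 is within its spread. H2-D1 and B2m did not differ beyond their spread in AAV-Cre cells, and Ifit3 was the only antiviral member among the first 4 places there.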

How the data were processed

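The deposited values are whole-number counts of reads per gene, not normalized, in 2 joint tables of 6 libraries each. Per the submitters' processing notes the authors used FastQC, Trim Galore, STAR and featureCounts with build mm10; for AAV libraries, per the file headers, they counted with featureCounts 2.0.1 on GENCODE vM30, an annotation of a later assembly, unstranded and without multi-mapping reads. For the TOM table the counting settings were not given in the sources used here. The 6 single AAV files equal their columns of the joint table. The kit, per the labels' protocols, was SMART-Seq mRNA LP, and no molecular identifiers are described, so bounds and intervals cover counting error only.

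Each table was fitted alone with edgeR 4.0.16 in R 4.3.3: TMM factors, filterByExpr with a minimum count of 10, the quasi-likelihood test, two-sided, and Benjamini-Hochberg adjustment over all genes tested (threshold 0.05). SEs derive from its F statistic. CPM used TMM-scaled totals and TPM the exon lengths in the headers. A group at 0 was given 3 counts as its limit. The steps were tested on simulated data. Alternatives were RLE factors, no scaling factors, no count filter, a replicate block, DESeq2 1.42.0, mitochondrially encoded genes removed and each library left out. Counts for the lists of genes that are not members, and the Otp and Mc4r values, under these settings were added after seeing the data. Libraries of a group differed by more than sampling noise (chi-square per degree of freedom of 44.6 or more).

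Named are all 36 members, the 2 genes with the smallest p of each pathway list, every gene of lists under 10 genes, the most abundant markers, and Otp and Mc4r. Outside this rule, Ifnb1, Ifng and Ifnz were named after their values were seen. One gene of the pathway lists is not reported here. Members and lists were chosen with earlier results of these data known.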

Additional observations from a re-analysis of the deposited data

How the results depend on the processing

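For TOM positive against TOM negative, 13 members fell with a replicate block in place of 17, and leaving out 1 library gave 10 to 18 lower and 0 to 1 higher. Over all genes, 3635 calls became 1987 with the block and 1511 to 3547 with 1 library left out. For AAV-Cre against AAV-GFP, 1 member fell (Ifitm3) and 1 rose (H2-D1) with no count filter; DESeq2 called 1 lower and 3 higher; leaving out 1 library gave 0 to 1 lower and 0 higher. Over all genes, 400 calls became 712 with no count filter, 0 with the block, 1531 in DESeq2 and 0 to 296 with 1 library left out. Deviations of same-numbered libraries from their group means had correlations between -0.07 and 0.02. With 3 libraries a group, this cannot show whether same-numbered libraries share an animal or a sort. Whether the main fit or the block fits the design better is therefore not known.

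Signs turned in the members given here, and the cause was not tested. Without scaling factors Stat2 was at 0.16 and Cmpk2 at 0.11 in TOM positive against TOM negative. With 1 library left out there, Stat2 ranged from -0.54 to 0.14, Ifit3b from -0.35 to 0.39 and Cmpk2 from -1.12 to 0.43. In AAV-Cre against AAV-GFP the block gave -0.16 for Isg15, -0.17 for Ifi35 and -0.0234 for Tap2. With 1 library left out there, Ifit1 ranged from -0.20 to 1.63, Ifih1 from -1.40 to 0.43, Isg15 from -0.89 to 0.80, Ifi35 from -0.91 to 0.63, Rtp4 from -0.75 to 0.97, Trim25 from -0.55 to 0.89, Tap1 from -0.23 to 1.74, Tap2 from -0.34 to 0.34, Tapbp from -0.47 to 0.79 and Psmb10 from -0.47 to 0.36. Zeros were frequent: 15 members had 0 counts in at least 1 TOM positive library. At 0 were 8, 10 and 7 members in TOM positive replicates 1, 2 and 3, with totals of 17727134, 26693043 and 27827853 counts. The cause of these zeros was not tested.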
